A study of Mus musculus with 24 samples.

Results

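The transcripts described here are Myc, the growth-promoting transcription factor, and 40 genes whose products make ribosomes, measured in mouse natural killer (NK) cells. The 41 genes were taken as a fixed list of symbols, chosen with earlier results of these data known. Each matched 1 of the 38215 genes in the deposited table. All 41 passed the filter on low counts in every fit, so none is missing from the counts below. The list holds Myc, 5 genes of RNA polymerase I and ribosomal DNA transcription, 3 of the box C/D and 3 of the box H/ACA small nucleolar ribonucleoproteins, the nucleolar proteins Ncl and Npm1, 14 of small subunit assembly and 13 of large subunit assembly.

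Bulk sequencing of poly(A) RNA was done on 24 libraries of NK cells in 6 groups of 4. WT and KO cells, the KO lacking FcRγ (the signalling chain encoded by Fcer1g), were taken from spleen in the naive state, from spleen with IL-15 treatment, and from tumour-bearing lung. Both lung groups carry the treatment label naive, so no lung library was labelled as given IL-15. The strain and age of the mice, how the allele was made, how and for how long IL-15 was given, which tumour was used and how NK cells were purified were not stated in the sources used here. IL-15 itself therefore cannot be told apart from any handling that went with it, nor the tumour from the lung. The 4 libraries of each group are labelled biological replicates, without a statement that each was a separate animal, so p-values measure the spread between these samples, which may be partly technical.

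Ribosome production starts in the nucleolus, where RNA polymerase I copies the ribosomal DNA into a long precursor RNA. Small nucleolar ribonucleoproteins guide methylation (box C/D) and pseudouridylation (box H/ACA) of that precursor, and separate sets of assembly factors fold and cut it into the small and the large subunit. Myc binds with its partner Max to the E-box CACGTG and raises the transcription of many of these genes. NK cells that are activated by cytokines such as IL-15 grow and divide, and Myc is known to be needed for that growth.

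Totals ranged from 9.68 to 32.1 M counts per library, and naive KO replicate 1 and lung WT replicate 1 (9.68 and 9.78 M) were the shallowest. Fcer1g was at 253 to 795 CPM (counts for each M counts in the library, M standing for mega) in the 12 WT libraries and at 1.25 to 16.2 CPM in the 12 KO libraries, in accord with the genotype labels. The 7 NK markers were above 1 CPM in all 6 groups, with summed levels from 5085 to 17230 CPM. Other cell types were also seen: the 6 monocyte and macrophage markers summed to 57.0 to 134 CPM in lung WT and 153 to 630 CPM in lung KO, against at most 27.4 CPM in any spleen library. All levels below are CPM on totals scaled by the trimmed mean of M-values (TMM), unless given per kilobase. They are shares of a library, so a change in total RNA per cell does not show in them, and in bulk samples fewer cells of a type and less RNA per cell cannot be told apart. A gene was called where the adjusted p of edgeR's quasi-likelihood test was under 0.05, and p-values below are from that test, adjusted over all genes tested by the Benjamini-Hochberg method.

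Myc rose in IL-15-treated spleen NK cells of both genotypes, and 26 further genes of the list rose with it in WT and 25 in KO, with none lower in either. Naive WT libraries held 55.3, 46.7, 35.4 and 47.96 CPM of Myc, and IL-15 WT libraries 147, 147, 171 and 168 CPM. In KO, Myc stood at 48.5, 52.3, 46.1 and 46.6 CPM in the naive state and at 185, 186, 151 and 158 CPM with IL-15. Every IL-15 library lay above every naive library, and the 2 genotypes overlapped both in naive and in IL-15-treated spleen. The log2 change of Myc was 1.69 ± 0.12 (SE), adjusted p = 2.83e-09 in WT, a 3.22-fold rise. In KO it was 1.75 ± 0.12 (SE), adjusted p = 2.22e-09, a 3.35-fold rise. The remaining 40 genes, summed, came to 2109 to 2639 CPM in naive WT and 3830 to 4387 CPM in IL-15 WT, a ratio of means of 1.77. In KO the sum went from 2428 to 2727 CPM to 3704 to 4307 CPM, a ratio of 1.55. Neither pair of groups overlapped. Other measures moved with IL-15 too. Mitochondrially encoded transcripts took 4.89 to 6.31% of counts in naive WT and 1.76 to 2.78% in IL-15 WT, and 1.18 to 9.28% and 0.81 to 2.82% in KO. The 7 NK markers summed to 15300 to 17230 CPM in naive WT and 5796 to 6825 CPM in IL-15 WT, and to 11970 to 14630 CPM and 5085 to 5768 CPM in KO. The 6 B-cell markers summed to 6.81 to 13.3 CPM and 1.21 to 4.72 CPM in WT, and to 14.0 to 28.6 CPM and 0.948 to 1.88 CPM in KO. Only the mitochondrial share in KO overlapped between these states. Their part in the rises was not tested.

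**Figure D1:**
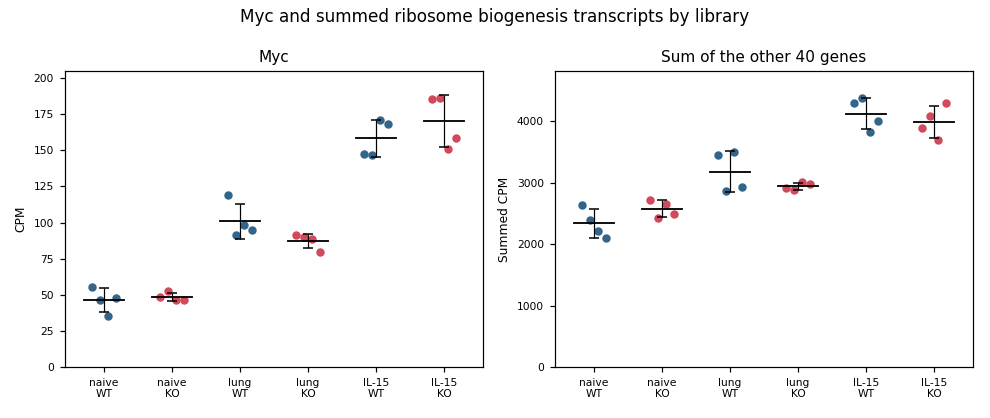
Level of Myc (left, CPM) and summed level of the other 40 genes (right, CPM) in each of the 24 libraries, by group (WT blue, KO red); bars are the group mean and SD (n = 4). Myc lies between 35.4 and 55.3 CPM in the naive libraries, between 79.9 and 119 CPM in lung and between 147 and 186 CPM with IL-15.

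Of the 41 genes, 27 (65.9%) were called in WT, all higher, where 52.4% of the 13344 genes tested were called and 26.4% were called higher. In KO, 26 (63.4%) were called, all higher, against 41.7% of all genes called and 20.7% called higher. The median log2 change of the 41 was 0.64 in WT and 0.61 in KO, where the median of all genes was -0.01 in each. Because the list was chosen with earlier results of these data known, its shares beside those of all genes, here and below, are a description only. Rises of at least 2-fold were seen for 14 of the 41 in WT and for 5 in KO, which is 34.1% and 12.2% of the list, where 16.0% and 11.1% of all genes rose as much. The IL-15 comparisons of WT and KO share no library, but they were fitted together with a shared estimate of the spread. Of the 41 genes, 22 were higher in both, and the share of all genes higher in both is not given here. Named for their roles, all 5 genes of the polymerase I group rose in KO and 4 of 5 in WT, while small subunit genes rose in 9 of 14 in WT and 6 of 14 in KO. Large subunit genes rose in 7 of 13 in each genotype.

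Among genes of ribosomal DNA transcription, Tcof1, which encodes treacle, a nucleolar scaffold for polymerase I, had the largest change in WT. It was at 18.6, 9.26, 11.1 and 14.2 CPM in naive WT and at 84.5, 81.5, 90.1 and 83.2 CPM in IL-15 WT, with no overlap. Its log2 change was 2.59 ± 0.22 (SE), adjusted p = 1.7e-08, or 6.02-fold. In KO, Tcof1 was at 48.2, 54.7, 26.1 and 30.3 CPM naive and 100.5, 89.6, 98.5 and 82.2 CPM with IL-15, a smaller log2 change of 1.16 ± 0.21 (SE), adjusted p = 0.000184, and these groups did not overlap either. The IL-15 levels of the 2 genotypes were close, and the naive KO libraries started higher. Nolc1, a nucleolar phosphoprotein that binds polymerase I and carries small nucleolar ribonucleoproteins, went from 26.1, 20.8, 12.4 and 16.7 CPM to 73.2, 78.2, 81.4 and 74.1 CPM in WT. The rise of Nolc1 was 1.93 ± 0.15 (SE), adjusted p = 8.89e-09, and the groups lay apart. In KO, Nolc1 rose from 41.1, 38.7, 36.6 and 36.5 to 77.7, 81.1, 79.1 and 79.6 CPM, by 0.99 ± 0.15 (SE), adjusted p = 3.51e-05. Mybbp1a, a nucleolar partner of polymerase I, rose by 1.62 ± 0.18 (SE), adjusted p = 5.78e-07 in WT and by 0.76 ± 0.18 (SE), adjusted p = 0.00192 in KO. Of the catalytic subunits of the polymerase, Polr1a rose in both genotypes (1.18 ± 0.17 in WT, 0.62 ± 0.17 in KO). Polr1b passed in KO only by the threshold, at 0.64 ± 0.14 (SE), adjusted p = 0.00119, beside 0.27 ± 0.14 (SE), adjusted p = 0.109 in WT. The difference between those 2 changes of Polr1b was 0.37 ± 0.20 (SE), adjusted p = 0.37, which did not pass.

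In the guide ribonucleoproteins, 4 of 6 genes rose in WT and 5 of 6 in KO. Nop56 and Nop58, which form the core of box C/D particles, rose in WT by 1.06 ± 0.15 and 0.79 ± 0.14 and in KO by 0.83 ± 0.15 and 0.74 ± 0.14. Fbl, the methyltransferase of the same particle, did not pass. Its libraries held 84.4, 79.9, 79.9 and 60.5 CPM in naive WT and 119, 138, 77.97 and 88.2 CPM in IL-15 WT, which overlapped, for a log2 change of 0.39 ± 0.18 (SE), adjusted p = 0.0692. Of the box H/ACA genes, Dkc1, the pseudouridine synthase, and Gar1 rose in both genotypes (Dkc1 by 0.58 ± 0.17 in WT and 0.63 ± 0.17 in KO, Gar1 by 0.62 ± 0.18 and 0.60 ± 0.18). Nhp2 was at 0.06 ± 0.17 (SE), adjusted p = 0.804 in WT and at 0.45 ± 0.17 (SE), adjusted p = 0.0406 in KO, where its call was lost in 9 of 20 alternative settings. The difference between those changes of Nhp2 did not pass. Ncl, the abundant RNA-binding protein nucleolin, rose by 1.32 ± 0.12 (SE), adjusted p = 3.63e-08 in WT and by 0.83 ± 0.12 (SE), adjusted p = 1.41e-05 in KO. Npm1, the nucleolar chaperone nucleophosmin, rose by 0.40 ± 0.13 (SE), adjusted p = 0.0184 in WT and by 0.62 ± 0.13 (SE), adjusted p = 0.00107 in KO.

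In the small subunit group, Rbm19, an RNA-binding component of the small subunit processome, was at 4.04, 2.62, 1.70 and 3.30 CPM in naive WT and at 17.7, 17.3, 13.7 and 16.8 CPM in IL-15 WT. That is a log2 change of 2.40 ± 0.27 (SE), adjusted p = 5.32e-07, with no overlap. In KO it was at 19.4, 9.74, 11.6 and 7.82 CPM naive and 16.8, 18.5, 15.1 and 17.98 CPM with IL-15, groups that overlapped, and the change of 0.44 ± 0.25 (SE), adjusted p = 0.162 did not pass. Rrp12, which takes part in export of the pre-40S particle, went from 11.9, 7.76, 6.07 and 7.85 to 27.1, 30.2, 23.8 and 30.3 CPM in WT, by 1.65 ± 0.20 (SE), adjusted p = 1.35e-06. Utp20, a large scaffold of the processome, went from 17.4, 13.8, 11.8 and 13.7 to 47.6, 34.4, 52.8 and 52.5 CPM in WT, by 1.64 ± 0.15 (SE), adjusted p = 7.56e-08. Neither Rrp12 nor Utp20 overlapped between naive and IL-15 WT. In KO, Rrp12 rose by 0.74 ± 0.19 and Utp20 by 0.92 ± 0.15. Tsr1, an assembly factor of late 40S particles, rose by 1.25 ± 0.13 and 0.74 ± 0.13, and Nop14 by 1.02 ± 0.18 and 0.69 ± 0.18 in WT and KO. Pno1 and Noc4l rose in both genotypes by 0.52 to 0.74. Heatr1 and Wdr43 were called in WT alone, at 0.37 ± 0.13 and 0.64 ± 0.14, beside 0.22 ± 0.13 and 0.24 ± 0.14 in KO, and neither difference between genotypes passed (adjusted p = 0.75 and 0.344). The call for Heatr1 in WT was lost in 7 of 19 alternative settings. Utp15, Utp18, Rrp9, Ddx10 and Nob1, the endonuclease that makes the end of 18S rRNA, passed in neither genotype, with log2 changes between -0.30 and 0.35.

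Among large subunit genes, Gnl3, which encodes the nucleolar GTPase nucleostemin, rose by 1.45 ± 0.14 (SE), adjusted p = 9.54e-08 in WT. In KO, Gnl3 went from 11.2, 9.93, 14.04 and 11.6 to 32.1, 30.7, 30.7 and 33.5 CPM, by 1.37 ± 0.14 (SE), adjusted p = 3.27e-07. Rrp1b rose by 1.62 ± 0.18 (SE), adjusted p = 4.41e-07 in WT, and in KO from 14.7, 13.1, 17.2 and 16.5 to 34.9, 37.9, 37.4 and 35.2 CPM, by 1.17 ± 0.17 (SE), adjusted p = 2.73e-05. Neither gene overlapped between the naive and IL-15 libraries of a genotype. Bop1, Pes1 and Wdr12 form 1 complex that large subunit maturation needs, and none of the 3 passed in WT. Bop1 was at 52.3, 54.3, 43.1 and 50.7 CPM in naive WT and 56.001, 48.4, 49.5 and 46.2 CPM in IL-15 WT, and Pes1 at 80.6, 77.9, 64.97 and 70.3 and 82.7, 67.1, 80.1 and 82.96 CPM. Both overlapped, with log2 changes of -0.09 ± 0.12 and 0.01 ± 0.11. Wdr12 was at 5.59, 9.47, 8.35 and 9.17 CPM in naive KO and 17.5, 20.95, 14.9 and 19.3 CPM in IL-15 KO, a rise of 1.07 ± 0.20 (SE), adjusted p = 0.000245 with no overlap. In WT the change of Wdr12 was 0.45 ± 0.19 (SE), adjusted p = 0.0567 and did not pass. Noc2l, Nop16 and Nop2, the last a methyltransferase of 28S rRNA, rose in both genotypes by 0.45 to 0.93, and the calls for Nop2 were each lost when some single libraries were left out. Mrto4 passed in KO and not in WT (0.55 ± 0.19 and 0.41 ± 0.19), and its call was lost in 6 of 20 settings. Ddx21 and Rrs1 were called in WT and not in KO (Ddx21 0.73 ± 0.14 and 0.22 ± 0.14, Rrs1 0.66 ± 0.17 and 0.33 ± 0.17). For Wdr12, Mrto4, Ddx21 and Rrs1 the difference between the genotypes in the change with IL-15 did not pass. The helicase genes Ddx18 and Ddx56 passed in neither genotype. Genes of at least 10 kb of summed exon took more of the counts with IL-15. They held 5.76 to 6.76% in naive WT and 7.58 to 11.9% in IL-15 WT. With a length and GC offset for each library, 27 of the 41 genes were again called higher in WT, 26 of them the same genes, and 28 in KO.

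**Figure D2:**
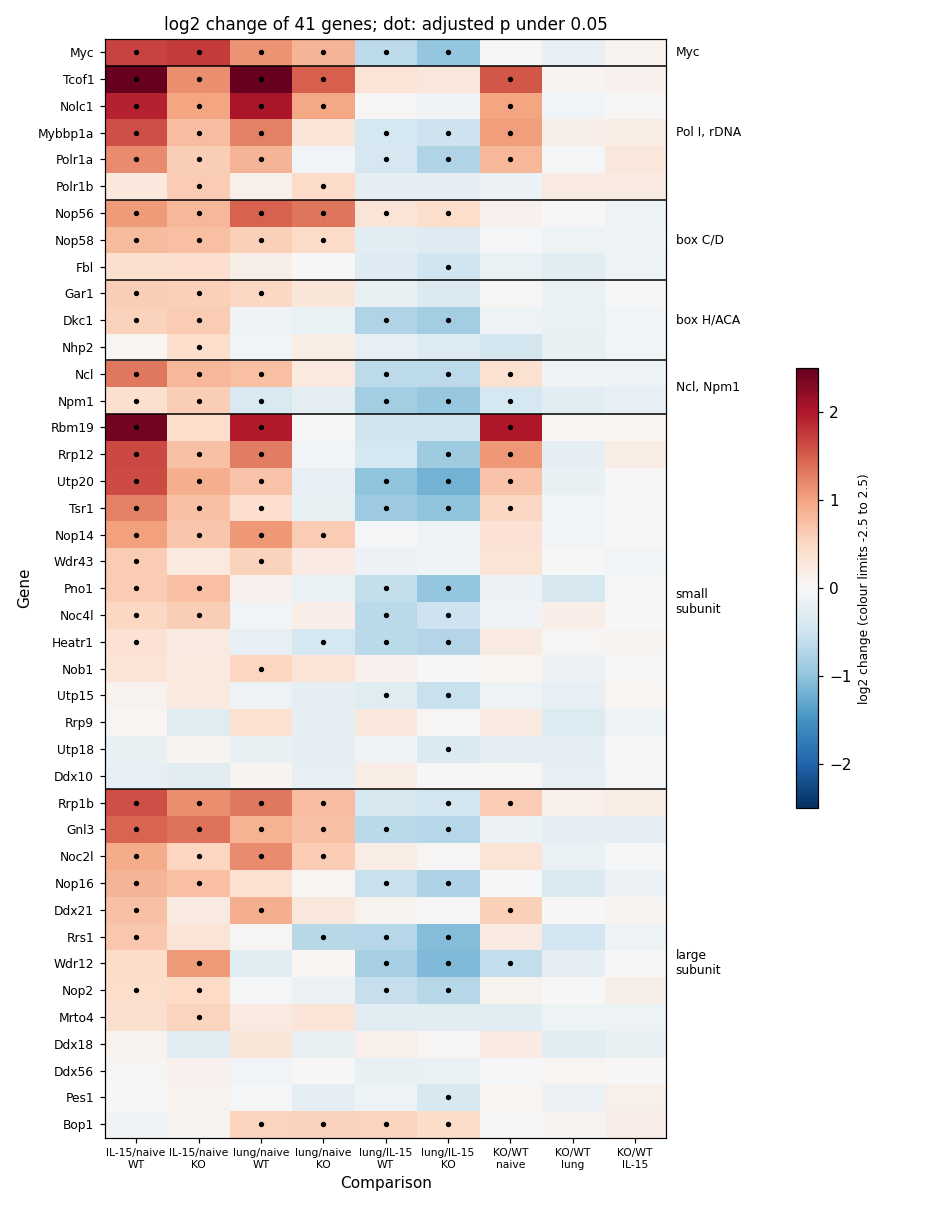
log2 change of the 41 genes (rows, ordered by role and then by the change with IL-15 in WT) in 9 comparisons (columns); colour runs from blue (lower in the first-named group) to red (higher) and a dot marks adjusted p under 0.05. With IL-15, 27 genes in WT and 26 in KO are dotted, all red, while the KO against WT columns hold 13 dots in naive spleen and 0 in lung and with IL-15.

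Because Myc and many list members rose together, the promoters were read for the E-box that Myc and Max bind. RefSeq windows (GRCm38.p6) from 250 bases before to 50 bases after a start were found for 34 of the 41 genes, in 38 windows. Fbl, Npm1, Rrp12, Myc, Rrs1, Bop1 and Tcof1 had no entry. CACGTG, which reads the same on both strands, was in 9 of the 38 windows (23.7%), and in 7.15% of all 32851 windows of that length. In all 9 it lay between 60 bases before the start and the window's end, where 45.2% of the windows with the motif held one over all genes. That bound of 60 bases coincides with the outermost of these E-boxes, the one in Nop2. Setting all 9 beside 45.2% is therefore a description only and no evidence of a preferred position. Of these 9 genes, 7 rose with IL-15 in WT, as did 27 of all 41. CACGCG, searched on both strands, was in 11 windows (28.9%, against 9.27% of all), and CCGGAAG, the core that ETS factors bind, in 11 (28.9%, against 8.86%). Of the 10 genes with CACGCG 5 rose with IL-15 in WT, and of the 10 with CCGGAAG 7. None of these motifs contains another, and a match is a description of the letters and no measure of binding. The stretches below run from 100 bases before the start to 30 bases from it, and are shown because they place the E-box in genes that rose (Rbm19, Nop2, Wdr43, Tsr1) beside genes that were not called (Utp18, Pes1), and 1 strongly rising gene, Nolc1, that holds CACGCG, read on the other strand as CGCGTG, instead. Capitals mark the motif, and each is read 5′ to 3′ on the strand of the gene.
Rbm19 (chr5:120116413-120116542, plus strand): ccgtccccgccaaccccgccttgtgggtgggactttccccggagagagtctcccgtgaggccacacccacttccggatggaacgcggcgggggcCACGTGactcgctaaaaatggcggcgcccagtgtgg
Nop2 (chr6:125131783-125131912, plus strand): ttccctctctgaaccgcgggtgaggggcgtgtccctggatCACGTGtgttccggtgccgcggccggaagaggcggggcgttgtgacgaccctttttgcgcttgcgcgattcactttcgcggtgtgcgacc
Wdr43 (chr17:71616115-71616244, plus strand): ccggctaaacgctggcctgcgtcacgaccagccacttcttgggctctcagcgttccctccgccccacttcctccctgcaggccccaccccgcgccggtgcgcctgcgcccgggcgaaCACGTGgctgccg
Tsr1 (chr11:74897980-74898109, plus strand): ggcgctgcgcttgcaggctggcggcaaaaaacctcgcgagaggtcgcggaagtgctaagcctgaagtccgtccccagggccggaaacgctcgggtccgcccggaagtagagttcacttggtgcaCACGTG
Utp18 (chr11:93885737-93885866, minus strand): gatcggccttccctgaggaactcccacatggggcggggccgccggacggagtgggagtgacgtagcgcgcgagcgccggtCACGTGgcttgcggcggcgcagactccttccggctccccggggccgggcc
Pes1 (chr11:3963875-3964004, plus strand): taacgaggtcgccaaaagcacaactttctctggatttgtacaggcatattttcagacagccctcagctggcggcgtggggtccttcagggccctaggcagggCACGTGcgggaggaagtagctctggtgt
Nolc1 (chr19:46075747-46075876, plus strand): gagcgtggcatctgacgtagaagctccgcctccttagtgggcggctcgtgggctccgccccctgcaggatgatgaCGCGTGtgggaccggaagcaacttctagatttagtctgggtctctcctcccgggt

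The E-box began 6 bases before the start in Rbm19, 60 before it in Nop2 and 20 before it in Utp18. In Pes1, Wdr43 and Tsr1 it began 2, 17 and 24 bases after the start, and in Utp20, Pno1 and Mybbp1a 37, 37 and 40 bases after it. Utp18 was at 34.4, 26.2, 34.98 and 31.3 CPM in naive WT and 30.9, 29.96, 29.5 and 28.1 CPM in IL-15 WT, which overlapped, so an E-box near the start did not go with a rise in every gene. Nolc1, with the third-largest change in WT, had no CACGTG in its window, and its CACGCG lay 25 bases before the start and CCGGAAG 14 bases before it.

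In naive spleen, where Myc itself was not called between the genotypes, 11 of the 41 genes were higher in KO and 2 lower. Myc was at 55.3, 46.7, 35.4 and 47.96 CPM in WT and 48.5, 52.3, 46.1 and 46.6 CPM in KO, which overlapped, and its change was 0.04 ± 0.12 (SE), adjusted p = 0.872. The genes called were 31.7% of the list, against 20.3% of the 13344 genes tested, and 11.1% of all genes were higher and 9.22% lower. The median log2 change of the 41 was 0.05. By role, 4 of 5 polymerase I and ribosomal DNA genes rose, 4 of 14 small subunit genes, 2 of 13 large subunit genes and Ncl, with 0 of 6 box C/D and H/ACA genes. The sum of the 40 genes other than Myc was 2109 to 2639 CPM in WT and 2428 to 2727 CPM in KO, which overlapped.

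Rbm19 had the largest change. Its WT libraries held 4.04, 2.62, 1.70 and 3.30 CPM and its KO libraries 19.4, 9.74, 11.6 and 7.82 CPM. All KO libraries were above all WT libraries, the highest being the shallow KO replicate 1, and the log2 change was 2.01 ± 0.27 (SE), adjusted p = 0.000101, or 4.02-fold. Without that library it was 1.72, with adjusted p = 0.000132. Tcof1 was at 18.6, 9.26, 11.1 and 14.2 CPM in WT and 48.2, 54.7, 26.1 and 30.3 CPM in KO, with no overlap. Its change was 1.55 ± 0.21 (SE), adjusted p = 0.000129, or 2.92-fold. Rrp12 was at 11.9, 7.76, 6.07 and 7.85 CPM in WT and 19.9, 15.5, 22.6 and 14.8 CPM in KO, a change of 1.09 ± 0.20 (SE), adjusted p = 0.00118. Mybbp1a was at 60.5, 48.2, 27.1 and 53.2 CPM in WT and 109.5, 101, 99.9 and 87.5 CPM in KO, a change of 1.04 ± 0.18 (SE), adjusted p = 0.00075. Neither overlapped. Nolc1 stood at 26.1, 20.8, 12.4 and 16.7 CPM in WT and 41.1, 38.7, 36.6 and 36.5 CPM in KO, for 0.98 ± 0.15 (SE), adjusted p = 0.000383. Polr1a stood at 18.7, 16.8, 12.3 and 17.9 CPM in WT and 32.9, 31.4, 26.1 and 29.4 CPM in KO, for 0.83 ± 0.17 (SE), adjusted p = 0.00264. For both of these too, each KO library exceeded each WT library.

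The other rises were smaller: Utp20 0.71 ± 0.15, Rrp1b 0.64 ± 0.18, Ddx21 (an RNA helicase that also acts with polymerase I) 0.59 ± 0.14, Tsr1 0.53 ± 0.13 and Ncl 0.38 ± 0.12. Npm1 was lower in KO, at 419, 419, 516 and 460.3 CPM against 605, 626, 670.4 and 505 CPM in WT, a change of -0.43 ± 0.13 (SE), adjusted p = 0.0298. Wdr12 was lower as well, at 5.59, 9.47, 8.35 and 9.17 CPM against 11.3, 10.05, 15.1 and 12.9 CPM, a change of -0.61 ± 0.20 (SE), adjusted p = 0.035. The Wdr12 groups lay apart and the Npm1 groups overlapped at 1 library. In all, 12 of the 41 genes had groups that did not overlap in naive spleen, where 20.3% of all genes tested did: those called higher except Ncl, plus Wdr12 and Nhp2. Of the members that did not pass, Polr1b was at -0.14 ± 0.14 (adjusted p = 0.522), Nop56 at 0.10 ± 0.15 (0.693) and Dkc1 at -0.12 ± 0.17 (0.661), the last 2 standing for the guide ribonucleoproteins. Nhp2 came closest to the threshold among them, at -0.47 ± 0.17 (SE), adjusted p = 0.0582. The calls for Rbm19, Tcof1, Rrp12, Mybbp1a, Nolc1, Polr1a, Utp20, Ddx21 and Tsr1 were kept in each of the 19 alternative settings, and those for Ncl, Npm1, Rrp1b and Wdr12 were each lost in at least 3.

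**Figure D3:**
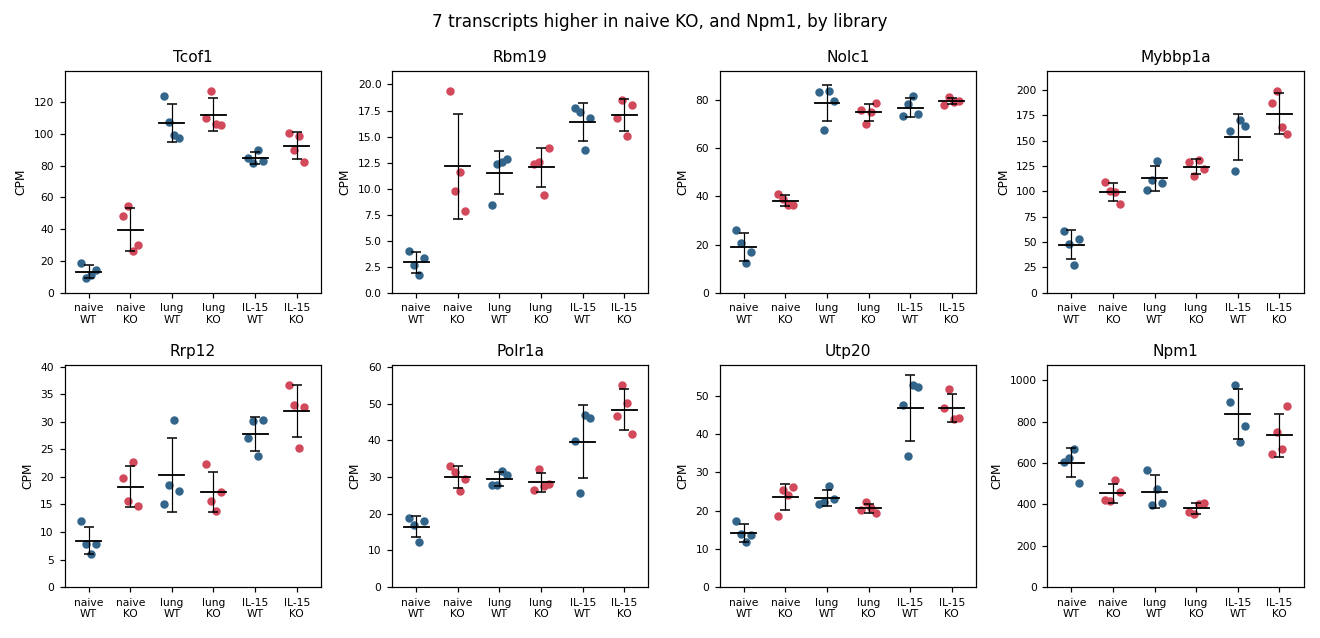
Level (CPM) of 8 genes in each of the 24 libraries, by group (WT blue, KO red); bars are the group mean and SD (n = 4). For the first 7 genes every naive KO library lies above every naive WT library, while in lung and with IL-15 the genotypes overlap; Npm1 is lower in naive KO on average.

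Genes with more summed exon were higher in naive KO across all genes, and the members that rose were mostly in the longer classes. Summed exon is the union of all annotated exons of a gene, so it can exceed the length of the transcript made. The median log2 change over all genes went from -0.30 for those under 1.5 kb of summed exon to -0.10 (1.5 to 3 kb), -0.02 (3 to 5 kb), 0.10 (5 to 10 kb) and 0.34 (at least 10 kb). No member of the 16 under 3 kb rose, whereas 3 of 11 rose at 3 to 5 kb, 5 of 9 at 5 to 10 kb and 3 of 5 from 10 kb. The share of all genes called higher in each class is not given here, so these counts have no background beside them. The 9 members of 5 to 10 kb had a median of 0.59 against 0.10 for all genes of that length. With an offset for length and GC content in each library, 11 members were called, 10 higher and 1 lower. Rbm19 was then at 1.67 and Tcof1 at 1.21, Npm1 and Rrp1b lost their calls at -0.08 and 0.33, and Ncl lost its call at 0.27. Polr1a kept its call at 0.41, down from 0.83. Marker sums also differed between these groups without overlap: 7 NK markers gave 15300 to 17230 CPM in WT and 11970 to 14630 CPM in KO, 6 B-cell markers 6.81 to 13.3 CPM and 14.0 to 28.6 CPM, 4 endothelial markers (mostly Pecam1) 53.1 to 74.8 CPM and 96.3 to 123.5 CPM, and 4 mast cell or basophil markers 1.2 to 4.32 CPM and 0 to 0.801 CPM. Of the NK markers, Gzma had the largest fall, from a mean of 8317 CPM in naive WT to 5858 CPM in naive KO. Ncr1, Klrb1c, Klrk1 and Prf1 were lower in KO too, while Eomes (624 and 678 CPM) and Itga2 (80.6 and 133 CPM) were higher. Mitochondrially encoded transcripts took 4.89 to 6.31% of counts in WT and 1.18 to 9.28% in KO. The part of cell makeup and RNA quality in these changes was not tested.

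**Figure D4:**
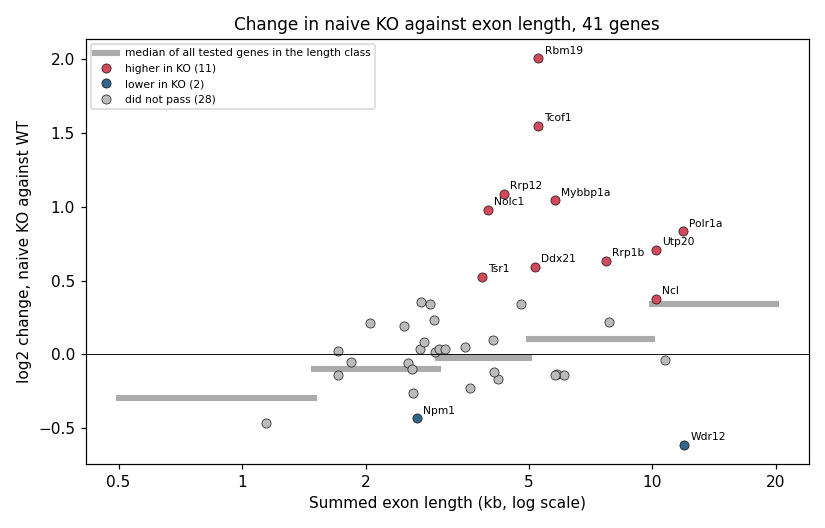
log2 change in naive KO against WT (vertical axis) of the 41 genes by summed exon length (horizontal, log scale); grey bars are medians of all tested genes in 5 length classes. The 11 red points, genes higher in KO, lie at 3.84 kb or longer; the blue points are Npm1 and Wdr12.

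With IL-15, no member passed the test between KO and WT: 0 of 41 were called, against 0.135% of the 13344 genes tested, and 0 had an unadjusted p under 0.05. DESeq2 and limma-voom also called 0. Every adjusted p of a member was 1, and log2 changes ran from -0.22 (Gnl3) to 0.28 (Polr1a, SE 0.17). Myc changed by 0.09 ± 0.12, so a genotype difference of the size that IL-15 gave (1.69 in WT) lay far outside its error. In lung, 0 of 41 were called, against 0.625% of 13129 genes, by edgeR, DESeq2 and limma-voom alike. There 3 members had an unadjusted p under 0.05, and 31 of the 41 had a negative log2 change, with a median of -0.14 beside 0.00 for all genes. Rrs1, an assembly factor for the 5S particle, had the smallest p, at -0.47 ± 0.15 (SE), adjusted p = 0.252. Its lung WT libraries held 34.2, 30.7, 39.6 and 24.3 CPM and its lung KO libraries 21.9, 22.3, 24.9 and 23.4 CPM. They overlapped at 1 library. Myc in lung was at 119, 91.5, 97.98 and 95.03 CPM in WT and 91.2, 89.8, 88.3 and 79.9 CPM in KO, a change of -0.21 ± 0.11 (SE), adjusted p = 0.498. The KO libraries lay just under the WT libraries, and Myc and Utp18 were the 2 members whose lung groups did not overlap, as for 8.77% of all genes tested there. Monocyte and macrophage markers, given above, were higher in lung KO than in lung WT without overlap, as was the mitochondrial share (3.17 to 6.13% of counts in lung WT, 8.49 to 10.7% in lung KO), and the part of both in these values was not tested.

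The KO effect in naive spleen differed from that under IL-15 for 3 members, and from that in lung for 7. The interaction with IL-15 was called for Rbm19 (-1.96 ± 0.36 (SE), adjusted p = 0.0105), Tcof1 (-1.43 ± 0.29 (SE), adjusted p = 0.0169) and Nolc1 (-0.94 ± 0.21 (SE), adjusted p = 0.0293), all lower, where 1.54% of all genes were called and 1.06% were lower. The interaction with lung, over 14275 genes of which 1.15% were called and 0.981% lower, was lower for Rbm19 (-1.98 ± 0.34), Tcof1 (-1.51 ± 0.27), Rrp12 (-1.36 ± 0.30), Nolc1 (-1.08 ± 0.20), Mybbp1a (-0.93 ± 0.23), Utp20 (-0.92 ± 0.20) and Polr1a (-0.91 ± 0.22). Adjusted p ran from 0.00707 to 0.0423 for these 7. In each of them the naive WT libraries were the low group: Tcof1 averaged 13.3 ± 4.11 CPM there (SD, n = 4), 39.8 ± 13.8 in naive KO, 107 ± 11.996 in lung WT and 112 ± 10.1 in lung KO. Both interactions use the same naive libraries, so they are not independent of each other. The IL-15 interaction was less settled: leaving out 1 library at a time gave 1 to 6 calls, with 1 call without IL-15 KO replicate 4. Nolc1 lost its call without any 1 of 11 of the 16 libraries and Tcof1 without either of 2, while Rbm19 kept its call each time. With the library number in the labels as a replicate block, 0 of the 3 were called, Rbm19 included. That fit left out replicate 4 of each spleen group, whose library number has no partner. It thus had fewer libraries as well as a block, and their parts in the lost calls cannot be told apart. For the lung interaction the range was 3 to 9 (3 or 4 without naive WT replicate 2 or 3, lung WT replicate 3, or lung KO replicate 2, 3 or 4), and Rbm19, Tcof1 and Nolc1 were kept in all 25 settings.

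NK cells from tumour-bearing lung had more Myc than naive spleen NK cells in both genotypes, and a set of members led by Tcof1, Nolc1 and Nop56 was higher with it. The log2 change of Myc from naive spleen to lung was 1.12 ± 0.12 (SE), adjusted p = 2.93e-08 in WT and 0.85 ± 0.12 (SE), adjusted p = 3e-06 in KO, and no lung library overlapped a naive one. In WT, 21 members were higher and 1 lower, together 53.7% of the list against 49.2% of 14275 genes called. In KO, 11 were higher and 2 lower, 31.7% against 42.4%. The shares for all genes were 29.2% higher with 20.0% lower for WT, and 24.3% with 18.1% for KO. The median log2 change was 0.43 in WT and 0.05 in KO, beside 0.08 and 0.05 for all genes, so in KO the median sat at the background. The sum of the 40 genes other than Myc was 1.36 times its naive mean in WT and 1.14 times in KO. Neither pair of groups overlapped in that sum. Tissue, tumour and the mix of other cells differ together in these comparisons, and their parts in these changes cannot be told apart. The macrophage marker sums are given above. The 6 epithelial markers summed to 19.8 to 410.5 CPM in lung and at most 7.62 CPM in spleen, while the 4 endothelial markers overlapped (79.4 to 127 CPM in lung, 53.1 to 141 CPM in spleen). The 5 melanocyte markers summed to 0.231 to 18.3 CPM in lung WT and 6.15 to 52.5 CPM in lung KO. In spleen they summed to at most 0.292 CPM. The 5 neutrophil markers summed to 2.26 to 26.7 CPM in lung and at most 0.225 CPM in spleen. Single markers varied: Lyz2 was at 94.9 CPM in lung WT and 3.53 CPM in naive WT, but Cd68 at 5.01 and 4.92 CPM.

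Tcof1 was at 124, 107, 99.4 and 97.6 CPM in lung WT and 110.2, 127, 106 and 105 CPM in lung KO, above every naive library. Its change was 3.01 ± 0.20 (SE), adjusted p = 1.29e-11 in WT and 1.497 ± 0.19 (SE), adjusted p = 8.67e-07 in KO. Nolc1 was at 83.2, 67.6, 83.6 and 79.4 CPM in lung WT and 75.5, 69.9, 75.004 and 78.5 CPM in lung KO, again above all naive libraries, for 2.04 ± 0.14 (SE), adjusted p = 2.69e-11 in WT and 0.97 ± 0.14 (SE), adjusted p = 4.85e-06 in KO. Nop56, of the box C/D core, was at 86.2, 74.5, 59.5 and 61.5 CPM in naive WT and 203, 172, 212 and 192 CPM in lung WT, and at 77.4, 78.6, 87.6 and 63.2 CPM in naive KO and 196, 196, 179 and 203 CPM in lung KO. These did not overlap, and the change was 1.47 ± 0.14 (SE), adjusted p = 3.49e-09 in WT and 1.34 ± 0.14 (SE), adjusted p = 2.9e-08 in KO. Rrp1b rose by 1.31 ± 0.17 in WT and 0.78 ± 0.17 in KO, Noc2l by 1.18 ± 0.15 and 0.64 ± 0.15, Nop14 by 1.08 ± 0.16 and 0.63 ± 0.16, Gnl3 by 0.86 ± 0.14 and 0.73 ± 0.14, Bop1 by 0.55 ± 0.11 and 0.58 ± 0.11, and Nop58 by 0.60 ± 0.14 and 0.48 ± 0.14. Rbm19, Rrp12, Mybbp1a, Polr1a and Utp20 were higher in lung in WT (by 1.99, 1.28, 1.25, 0.84 and 0.72) and did not pass in KO (at 0.01, -0.07, 0.32, -0.07 and -0.20). Those are 5 of the 7 genes of the lung interaction, which is the test of that difference.

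Few members were lower in lung than in naive spleen. Npm1 was lower in WT, at 567, 397, 477 and 408 CPM against 605, 626, 670.4 and 505 CPM, by -0.38 ± 0.13 (SE), adjusted p = 0.0183. The 2 groups overlapped at 1 library, and with the length and GC offset the direction turned, at 0.15. In KO the members below naive spleen were Rrs1 and Heatr1. Rrs1 was at 21.9, 22.3, 24.9 and 23.4 CPM in lung KO and 52.7, 33.7, 27.96 and 35.1 CPM in naive KO, a change of -0.68 ± 0.17 (SE), adjusted p = 0.00188. Heatr1, a processome scaffold, changed by -0.44 ± 0.13 (SE), adjusted p = 0.00941. Neither passed in WT (0.04 ± 0.17 and -0.21 ± 0.13), and the interactions for Rrs1 and Heatr1 did not pass (adjusted p = 0.134 and 0.617).

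Against IL-15-treated spleen, lung NK cells had less Myc and lower levels of much of the list. In WT, 17 members were lower and 2 higher (46.3% of the list, against 44.3% of all genes), and in KO 22 were lower and 2 higher (58.5% against 43.8%). Among all genes 20.6% were lower and 23.8% higher in WT, and 20.5% and 23.3% in KO. These comparisons share their lung and IL-15 libraries with those above. Myc was lower by -0.65 ± 0.12 (SE), adjusted p = 6.47e-05 in WT and -0.96 ± 0.12 (SE), adjusted p = 2.7e-07 in KO, without overlap. Utp20 had the largest fall in both genotypes. It was at 21.6, 22.4, 26.4 and 23.1 CPM in lung WT and 20.3, 22.1, 20.6 and 19.3 CPM in lung KO, below every IL-15 library, with changes of -1.0003 ± 0.14 (SE), adjusted p = 2.38e-06 in WT and -1.19 ± 0.14 (SE), adjusted p = 1.76e-07 in KO. Tsr1 changed by -0.91 ± 0.15 and -1.001 ± 0.15, Npm1 by -0.86 ± 0.13 and -0.95 ± 0.13, Wdr12 by -0.83 ± 0.18 and -1.10 ± 0.18, Rrs1 by -0.71 ± 0.17 and -1.08 ± 0.17, Pno1 by -0.60 ± 0.15 and -0.97 ± 0.15, and Dkc1 by -0.74 ± 0.17 and -0.86 ± 0.17. Wdr12 was at 11.4, 11.4, 8.64 and 8.9996 CPM in lung WT and 15.3, 21.8, 15.8 and 18.8 CPM in IL-15 WT, and at 8.86, 9.02, 7.61 and 8.46 CPM in lung KO and 17.5, 20.95, 14.9 and 19.3 CPM in IL-15 KO. Bop1 and Nop56 were the members higher in lung, by 0.55 ± 0.11 and 0.33 ± 0.13 in WT and 0.45 ± 0.11 and 0.43 ± 0.13 in KO. The Nop56 call in WT was lost in 10 of 18 settings. Tcof1 and Nolc1 did not pass between lung and IL-15 spleen, at 0.33 ± 0.19 and 0.03 ± 0.14 in WT and 0.27 ± 0.19 and -0.09 ± 0.14 in KO.

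Over the 6 groups, Myc averaged 46.3 ± 8.21 CPM in naive WT, 48.4 ± 2.81 in naive KO, 87.3 ± 5.08 in lung KO, 101 ± 12.3 in lung WT, 158 ± 12.99 in IL-15 WT and 170.2 ± 18.3 in IL-15 KO (SD, n = 4 each). The steps from naive to lung and from lung to IL-15 passed in both genotypes, and KO against WT within a state did not pass, although the lung groups did not overlap. Of the 41 genes, 32 had their highest mean in an IL-15 group, and 19 had their lowest in naive WT. The lung mean lay between the naive and the IL-15 mean for 20 genes in WT and 18 in KO. The same counts over all genes are not given here, so how far these orders are particular to the list was not tested. Per kilobase of summed exon, in naive WT, Npm1 was the most abundant member at 226 CPM per kb and Rbm19 the least at 0.552 CPM per kb. With IL-15, Npm1 reached 315 CPM per kb and Rbm19 3.10 CPM per kb in WT, while Myc went from 17.1 to 58.2 CPM per kb.

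The wider ribosome assembly genes, in lists chosen by function and holding none of the 41, moved less with IL-15 than the members. Members and lists were both chosen with earlier results of these data known, so this difference is a description only. With IL-15 in WT, 10 of 43 further small subunit genes rose and 9 fell, with a median of 0.03, and 16 of 47 further large subunit genes rose and 4 fell, with a median of 0.10. Of 13 further polymerase I genes 5 rose and 3 fell, and of 11 assembly factors of the small nucleolar particles 1 rose and 2 fell. In KO the counts were 5 higher and 5 lower of 43, 11 and 3 of 47, 4 and 2 of 13, and 2 and 1 of 11. Those shares are near or under the background of 26.4% higher in WT and 20.7% in KO, apart from the polymerase I and large subunit lists. Nol10 (1.21 ± 0.15) and Nat10, an RNA acetyltransferase (1.01 ± 0.14), rose with IL-15 in WT while Utp23 fell (-0.76 ± 0.10). Among large subunit genes Mdn1, the giant ATPase that remodels the pre-60S particle, rose by 2.53 ± 0.30, Ppan by 1.64 ± 0.21 and Sdad1 by 1.46 ± 0.16. In naive KO against WT, 7 of the 43 were higher and 3 lower (Pdcd11 0.94 ± 0.19, Nol6 0.54 ± 0.13, Emg1 -0.62 ± 0.15), and 4 of the 47 higher and 2 lower (Mdn1 0.97 ± 0.29, Sdad1 0.64 ± 0.16, Urb2 0.56 ± 0.14), where 11.1% of all genes were higher and 9.22% lower. Of the 13 further polymerase I genes, 2 were higher there and 1 lower, with a median log2 change of -0.12. Ubtf, the factor that holds ribosomal DNA open, and Baz2a rose by 0.71 ± 0.17 and 0.64 ± 0.16. The polymerase I subunit gene Znrd1 changed by -0.74 ± 0.18. The trend with summed exon length in naive KO, described above, was not removed from the values of these lists or of the Myc lists below. Its part in them was not tested. No gene of these 4 lists differed between KO and WT with IL-15 or in lung.

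The Myc network holds the partners and competitors of Myc. With IL-15 in WT 9 of 13 network genes tested rose and 4 fell, with a median of 0.74, and in KO 5 rose and 2 fell, where 52.4% and 41.7% of all genes were called, 26.4% and 20.7% higher. Max, the common partner, was at 112, 116, 116 and 124 CPM in naive WT and 109.8, 109.7, 94.1 and 98.3 CPM in IL-15 WT, a change of -0.27 ± 0.09 (SE), adjusted p = 0.0226, beside 1.69 for Myc. Mxd1, which competes with Myc for Max, was at 100.3, 109, 90.1 and 105 CPM in naive WT and 56.3, 51.01, 57.6 and 55.5 CPM in IL-15 WT, a change of -0.96 ± 0.10 (adjusted p = 3.85e-07). Lung WT libraries held 325, 438, 495 and 443 CPM of Mxd1, 2.07 ± 0.12 above naive WT (adjusted p = 7.26e-13). Thus Mxd1 was low where Myc was highest and high in lung, where Myc was intermediate. Mxd3, of the same family, was high with IL-15 instead, at 1.48, 1.80, 1.57 and 1.78 CPM in naive WT, 33.9, 43.5, 31.9 and 31.2 CPM in IL-15 WT and 1.998, 1.31, 1.51 and 0.808 CPM in lung WT, and rose with IL-15 by 4.31 ± 0.29 (adjusted p = 9.69e-10). Mycn was at 12 counts over the 4 naive WT libraries and 0 over the 4 naive KO libraries, and at 7.55, 5.79, 6.56 and 6.24 CPM in IL-15 WT and 7.13, 6.54, 7.05 and 6.17 CPM in IL-15 KO. In lung WT, Zbtb17 (Miz-1, through which Myc represses) was above naive WT by 1.98 ± 0.14 and Fbxw7, the ubiquitin ligase subunit that marks Myc for degradation, by 1.61 ± 0.13.

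**Figure D5:**
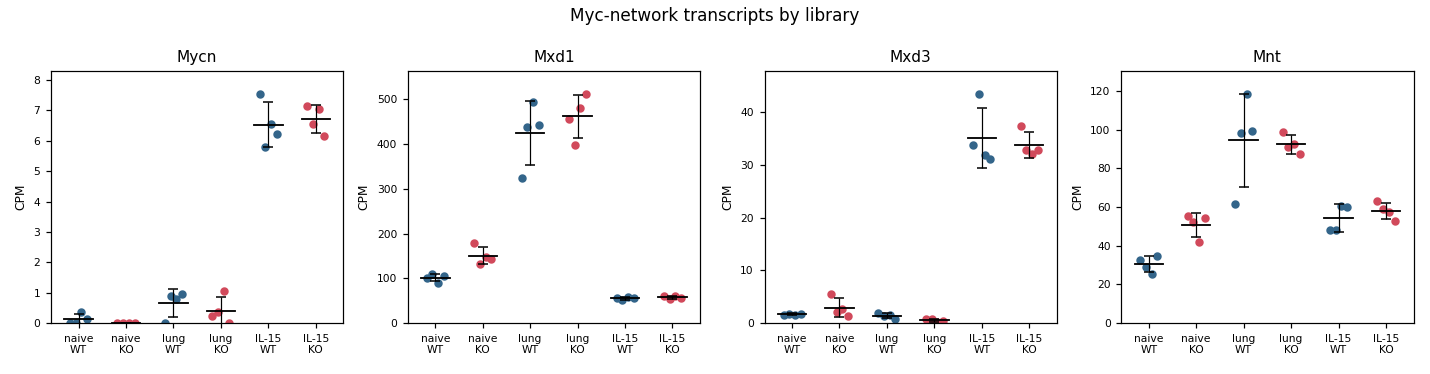
Level (CPM) of Mycn, Mxd1, Mxd3 and Mnt in each of the 24 libraries, by group (WT blue, KO red); bars are the group mean and SD (n = 4). Mxd1 is highest in lung (325 to 513 CPM) and lowest with IL-15 (51.0 to 60.9 CPM), while Mycn and Mxd3 are highest with IL-15.

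In naive spleen 6 of the 13 network genes were higher in KO and 3 lower, against 11.1% and 9.22% of all genes, with Myc itself not called. Mycn, 1 of the 3 lower, rests on the 12 counts named above, from 2 libraries. Mnt, another competitor for Max, was at 32.8, 29.1, 25.4 and 34.9 CPM in WT and 55.1, 52.3, 41.7 and 54.5 CPM in KO, a change of 0.71 ± 0.13 (adjusted p = 0.00111). Mxd1 was at 178, 132, 149 and 144 CPM in KO, against the WT values above, a change of 0.55 ± 0.10 (adjusted p = 0.00155), and neither gene overlapped. Trrap, a coactivator that Myc recruits and a very long transcript, rose by 1.07 ± 0.22 (adjusted p = 0.00266). With IL-15 or in lung, 0 of the 13 differed between the genotypes. Of 20 Myc targets outside the nucleolus, 13 rose with IL-15 in each genotype, with 2 lower in WT and 1 in KO, where 26.4% and 20.7% of all genes were higher. In WT the transferrin receptor gene Tfrc rose by 4.23 ± 0.29, Hk2 (hexokinase) by 3.48 ± 0.31 and Odc1 (ornithine decarboxylase, of polyamine synthesis) by 1.37 ± 0.13. In lung against naive WT the same list had 5 higher and 3 lower (49.2% of all genes were called), and against IL-15 WT 2 higher and 12 lower (44.3% of all genes), with Ldha at -1.35 ± 0.13, Shmt1 at -2.47 ± 0.28 and Cdk4 at -0.97 ± 0.12. In naive KO against WT it had 2 higher and 3 lower (Cad 0.74 ± 0.14, Eif4e -0.70 ± 0.17, Ccnd2 -0.47 ± 0.12), where 20.3% of all genes were called.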

How the data were processed

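The authors deposited 1 table of expected counts per gene, 38215 genes by 24 libraries of mouse NK cells. The tools named in the submitters' processing notes are cutadapt 1.9, STAR 2.5.2a and RSEM 1.2.30, with GRCm38 as the build. Settings and annotation were not stated in the sources used here. Libraries came from a directional poly(A) kit, per the labels' protocols. RSEM splits reads shared by several genes, so 5.47% of values were not whole, and all were rounded. Gene families with close copies or processed pseudogenes, Npm1 among the members, are therefore less certain.

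Groups were taken from the labels. Genes passing filterByExpr were tested in R 4.3.3 with edgeR 4.0.16 (TMM, quasi-likelihood F test, Benjamini-Hochberg adjustment, threshold 0.05): 13344 genes over the 16 spleen libraries, 13129 over the 8 lung libraries and 14275 over all 24 for lung against spleen. The SE was taken as the log2 change over the square root of the F statistic. Totals of 9.68 to 32.1 M counts set the precision. Lengths (union of exons) and GC were read from the GENCODE M21 reference, for 98.6% of tested genes. The procedure was tested on simulated data. The alternatives used DESeq2 1.42.0, limma 3.58.1 with voom and library weights, other size factors and filters, the length and GC offset, replicate blocks, other sets of libraries in the fit and single libraries left out.

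The 41 genes, the lists and the tests were chosen with earlier results of these data known. Levels in each library are given for Myc and for up to 6 members with the largest change in each comparison, and up to 3 genes with the smallest p are named from each further list; others were named after their values were seen. Planned protein features of the members were not analysed here.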

Additional observations from a re-analysis of the deposited data

Results flagged for a closer look

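The KO effect in naive spleen differed from that under IL-15 for Rbm19 (interaction -1.96, adjusted p = 0.0105), Tcof1 (-1.43, 0.0169) and Nolc1 (-0.94, 0.0293), by edgeR's quasi-likelihood test of the difference itself. Between lung and naive spleen it differed for Rbm19 (-1.98, 0.00707), Tcof1 (-1.51, 0.00707), Rrp12 (-1.36, 0.0254), Nolc1 (-1.08, 0.00716), Mybbp1a (-0.93, 0.0423), Utp20 (-0.92, 0.0213) and Polr1a (-0.91, 0.041).

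In 14 of 252 groups of 4 libraries, 1 library's CPM lay far from the other 3 by Dixon's ratio, and chance flags about 1 in 20 groups. Of these values 3 were in IL-15 WT replicate 2: Rrp9 at 39.4 CPM against 24.8 to 25.9, Wdr43 at 57.9 against 71.6 to 73.9 and Ddx21 at 188.5 against 242 to 247. Another 3 were in the shallow lung WT replicate 1: Pes1 at 92.3 against 64.0 to 65.3, Nhp2 at 78.6 against 32.8 to 38.6 and Rbm19 at 8.46 against 12.3 to 12.8. In the shallow naive KO replicate 1, Nop2 was at 44.0 CPM against 24.3 to 26.5. The remaining values were Nop16 in lung KO replicate 2 (10.2 CPM), Ddx18 in lung KO replicate 1 (78.3), Ddx56 in lung KO replicate 3 (44.1), Bop1 in IL-15 KO replicate 1 (65.0) and lung WT replicate 3 (69.1), Heatr1 in IL-15 KO replicate 2 (81.0) and Mrto4 in naive WT replicate 4 (15.6).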

How the results depend on the processing

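With all libraries kept, the number of members called stayed within 1.5 times its value under every alternative run except for 2 comparisons. For lung against IL-15 WT, limma-voom called 30 in place of 19. For the IL-15 interaction, 3 in edgeR, limma-voom called 8, DESeq2 7 and the fit of all 24 libraries 5. Leaving out 1 library at a time gave 9 to 14 calls for naive KO against WT, 25 to 28 and 23 to 30 for IL-15 against naive in WT and KO, 20 to 23 and 13 for lung against naive, 14 to 20 and 22 to 25 for lung against IL-15, 1 to 6 for the IL-15 interaction (6 without naive WT replicate 1 or IL-15 WT replicate 2, and 1 without IL-15 KO replicate 4) and 3 to 9 for the lung interaction. KO against WT stayed at 0 with IL-15 and in lung. Among Myc and the members called in a comparison, 4 values turned in sign, of which 3 were near 0 and not called: Myc in naive KO against WT, which ran from -0.082 (without naive WT replicate 3; -0.0024 without naive KO replicate 2) to 0.12, and the IL-15 interaction of Myc, which ran from -0.025 (without naive WT replicate 1) to 0.19. The other was Npm1 in lung against naive WT, 0.15 with the length and GC offset. Values of members not called were not counted here and some turned too, such as Dkc1 in naive KO against WT (0.06 with the offset) and Nop58 there (0.08 without naive KO replicate 1). All calls were kept in every alternative for 9 of 13 members in naive KO against WT, 24 of 27 and 21 of 26 with IL-15 in WT and KO, 18 of 22 and 12 of 13 for lung against naive, 14 of 19 and 20 of 24 for lung against IL-15, 0 of 3 for the IL-15 interaction and 3 of 7 for the lung interaction. The cause of these shifts was not tested. Replicate numbers are shared between groups, and no pair of groups had all correlations between same-numbered libraries over 0.1. By library number they ran from -0.05 to 0.2 for naive KO with IL-15 KO. With 3 or 4 pairs for each comparison, these values cannot tell whether same-numbered libraries share an animal or a preparation. With the replicate block the counts were 13 for naive KO against WT, 27 and 26 with IL-15, 22 and 13 for lung against naive, 19 and 24 for lung against IL-15, 3 and 5 for the interactions. A replicate block by the library number in the labels gave 25 and 21 calls with IL-15, and 0 for the IL-15 interaction. That fit kept only the 3 pairs of each genotype with a shared number, so it also had fewer libraries than the main fit. Low members such as Rbm19 and Wdr12, under 20 CPM in most libraries, are measured less precisely, with an SE of 0.36 for the IL-15 interaction of Rbm19.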
